A study of Mus musculus with 26 samples.

Results

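The 9 genes described here, *Ly6a*, *Clu*, *Anxa1*, *Anxa3*, *Anxa10*, *Krt7*, *Il33*, *F3* and *Sprr1a*, are genes of the fetal-like, or revival, state of injured intestinal epithelium. They were chosen by name, not by their values, and all 9 were found among the 55487 genes of the count table. Their levels were measured by RNA-seq in tissue of the proximal small intestine (SI) from 26 mice aged 8 to 12 weeks, 1 library from each mouse. Knockout mice (tg) carried *loxP*-flanked alleles of the targeted nuclear gene and the *Villin-creERT2* transgene, whose tamoxifen-activated Cre recombinase is expressed in intestinal epithelial cells (IECs) and not in the other cells of the tissue. Control mice (wt) were littermates with the same *loxP*-flanked alleles and without the transgene. All mice of both genotypes received 5 injections of tamoxifen and were analysed 3 days (7 knockout and 7 control mice) or 7 days (6 and 6 mice) after the last one.

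Damaged crypts can replace their stem cells from other epithelial cells, which for a time express genes of the fetal gut epithelium in place of adult stem cell genes. This state is known from irradiated, ulcerated and parasite-infected intestine, where it depends on YAP, a transcriptional co-activator that is restrained by the Hippo kinases and acts through the TEAD factors. Several of these genes are also expressed outside the intestinal epithelium, among them *Ly6a* in endothelial cells and lymphocytes, *Il33* in fibroblasts and endothelial cells, and *Anxa10* in the surface epithelium of the stomach.

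The libraries read the 3′ ends of transcripts, so each transcript gives about the same number of reads whatever its length, and levels are given relative to the library total as CPM. Between 3720168 and 6338016 counts were assigned to genes per library, and the floor of 3 counts of a library stood at between 0.473 and 0.806 CPM. A piece of tissue holds epithelium, lamina propria and muscle, so in these bulk samples a higher share of a cell type and more RNA of a gene per cell cannot be told apart. Markers of stomach and pancreas set some libraries apart. The summed level of 15 stomach markers was above 1000 CPM in 4 libraries, at 88460 CPM in control replicate 5 and 11640 CPM in control replicate 7 of day 3, 43470 CPM in knockout replicate 1 of day 3, and 40580 CPM in control replicate 2 of day 7. In the other 22 libraries it was at most 406 CPM. The 4 libraries are called stomach libraries below after these markers, and the tissue that the markers came from was not tested. Pancreatic acinar markers summed to more than 1000 CPM in 10 libraries, spread over all groups. Results that rest on these libraries are given below with and without them.

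At 7 days, 5 of the 8 members tested were higher in knockout mice and 1 was lower (adjusted p under 0.05, edgeR quasi-likelihood test with Benjamini-Hochberg adjustment over all genes). *Sprr1a*, *Anxa3*, *F3*, *Ly6a* and *Krt7* rose and *Il33* fell. These counts stand against 19.7% of all genes tested called higher and 18.8% called lower. Knockout and control libraries did not overlap for any of the 6 called genes, and did not overlap for 22.6% of all genes tested. The median log2 fold change of the 8 members was 1.002, and that of all genes tested was -0.02. At 3 days, 0 of the 7 members tested passed the threshold, with 1.43% of all genes called in either direction, and 1 member had an unadjusted p under 0.05. The Wald test of DESeq2 also called 0 members. None of the 9 members had separate groups at 3 days, as against 0.848% of all genes tested. *Anxa10* at both days and *Sprr1a* at 3 days were left out of the fits, because they had no count in most libraries of a group.

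**Figure D1:**
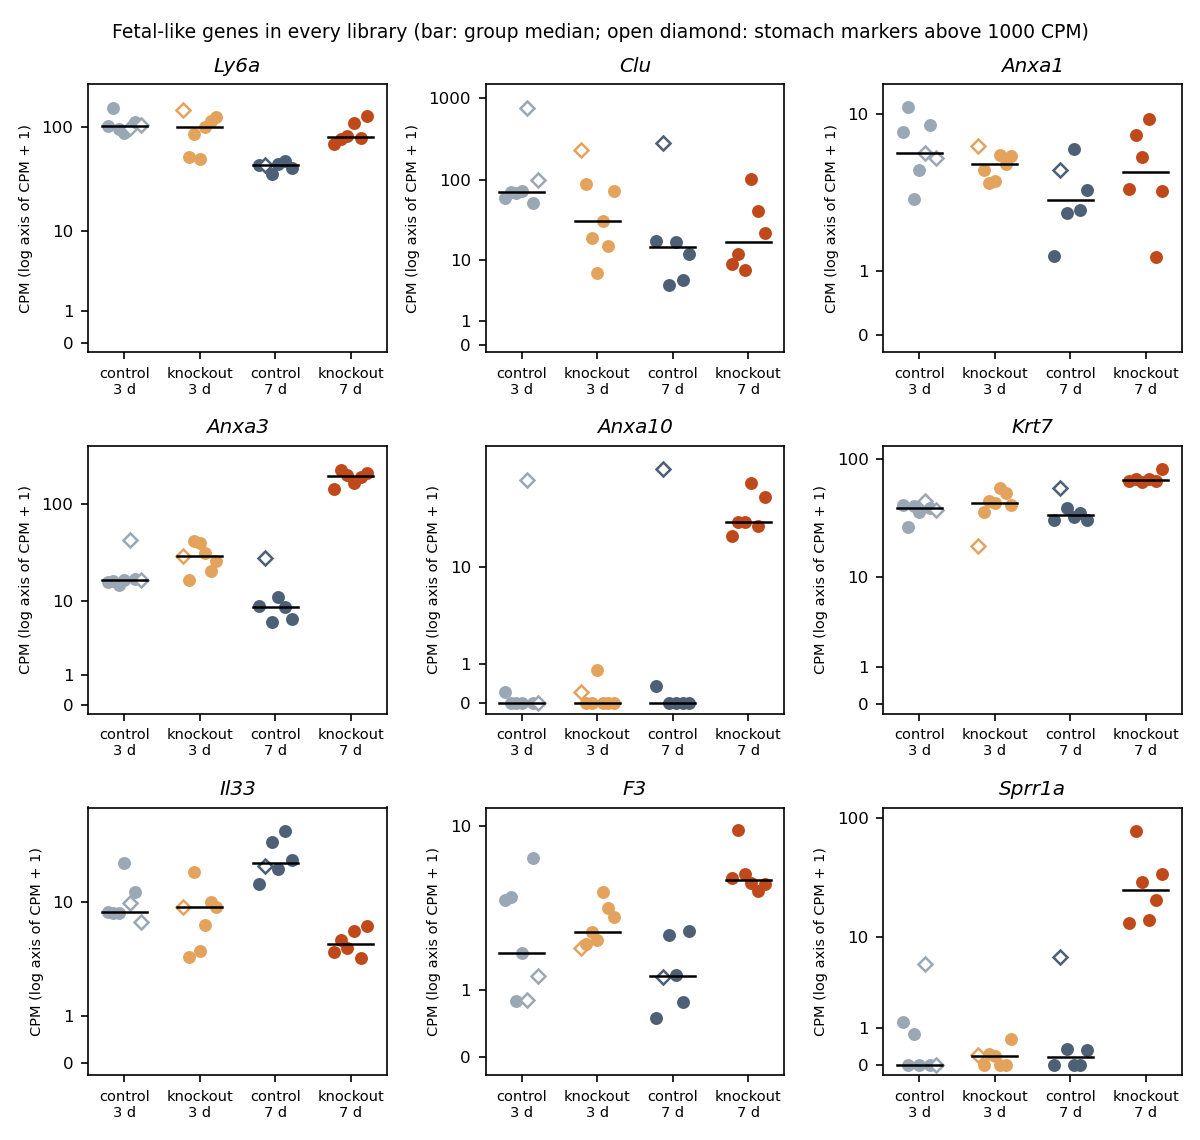
Level of each gene in every library, in CPM on a log axis of CPM + 1, with 1 point per mouse and a bar at the group median. Open diamonds mark the 4 libraries with stomach markers above 1000 CPM. At 7 days the knockout points of *Anxa3* (141.8 to 222.2 CPM) and *Sprr1a* (13.3 to 78.6 CPM) lie above all control points, and those of *Il33* (3.79 to 6.66 CPM) lie below them.

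Of the annexins, which bind phospholipids in a calcium-dependent manner, *Anxa3* (ENSMUSG00000029484, GRCm38 chr5:96793339-96845966, plus strand) showed the clearest change. At 7 days its lowest, median and highest levels were 141.8, 193 and 222 CPM in knockout mice and 5.82, 8.64 and 28.7 CPM in control mice. The lowest knockout library was therefore several times above the highest control library, which was control replicate 2 with its stomach markers. The log2 fold change was 4.08 (standard error 0.288, 16.9-fold, adjusted p = 2.38e-09, edgeR), and it was 4.53 without control replicate 2. At 3 days *Anxa3* ranged from 16.8 to 42.6 CPM (median 29.9) in knockout mice and from 14.7 to 43.3 CPM (median 16.7) in control mice. The groups overlapped, and control replicate 5, the library with the highest stomach marker sum, had the highest value of all 14. In the libraries below 1000 CPM of stomach markers the control mice stood at 14.7 to 17.3 CPM, near the lowest knockout library. The log2 difference at 3 days was 0.66 ± 0.265 (SE, unadjusted p = 0.0236, adjusted p = 0.269, edgeR). Without control replicate 5 it was 0.98 (adjusted p = 0.013, edgeR), the only change of call of a member at 3 days when 1 mouse was left out. Exons of *Anxa3* overlap those of *Gm42603* on the same strand, to which between 0 and 22 counts per library were assigned.

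*Anxa10* (ENSMUSG00000031635, GRCm38 chr8:62057042-62123150, minus strand) had no count in most libraries, but was present in every knockout library of day 7. Its counts in the 6 knockout mice of day 7 were 102, 147, 123, 259, 131 and 205, or 17.9, 23.3, 23.3, 46.9, 21.6 and 36.9 CPM. In the 6 control mice it had 2, 277, 0, 0, 0 and 0 counts. All knockout libraries were above 5 of the 6 control libraries, and control replicate 2, at 60.2 CPM, was above all of them. The difference in mean level, on CPM scaled with TMM factors, was 21.4 CPM and did not pass a two-sided exact permutation test over mice (p = 0.0801). Without control replicate 2 the difference was 31.7 CPM (p = 0.00216, exact permutation test, the smallest p that this test can give). At 3 days *Anxa10* was at 0 in 5 of 7 libraries of each genotype and reached 4 counts in knockout replicate 4. The exception was control replicate 5, with 185 counts or 49.7 CPM, and the difference in mean level of -6.63 CPM did not pass the exact permutation test (p = 0.878).

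The level of *Anxa10* was set beside that of the stomach markers. In the 6 knockout libraries of day 7 the 15 stomach markers summed to between 4.21 and 89.1 CPM. Of these markers *Gkn2*, *Muc5ac* and *Atp4b* were at 0 counts in all 6, *Gkn1* had at most 4 counts, and *Tff1* had at most 3.5 counts. In control replicate 2 of day 7, with a like level of *Anxa10*, *Gkn1* had 5095 counts and *Tff1* had 12442 counts. Knockout replicate 1 of day 3 held 43470 CPM of the stomach markers, mostly *Tff2*, *Muc6* and *Gkn3*, with *Gkn1* at 2 counts or fewer. *Anxa10* there had 1 count. The tissue that these transcripts came from was not tested. *Anxa10* was thus high together with markers of the stomach surface in 2 control libraries, and with these markers at or near 0 in the knockout libraries of day 7.

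**Figure D2:**
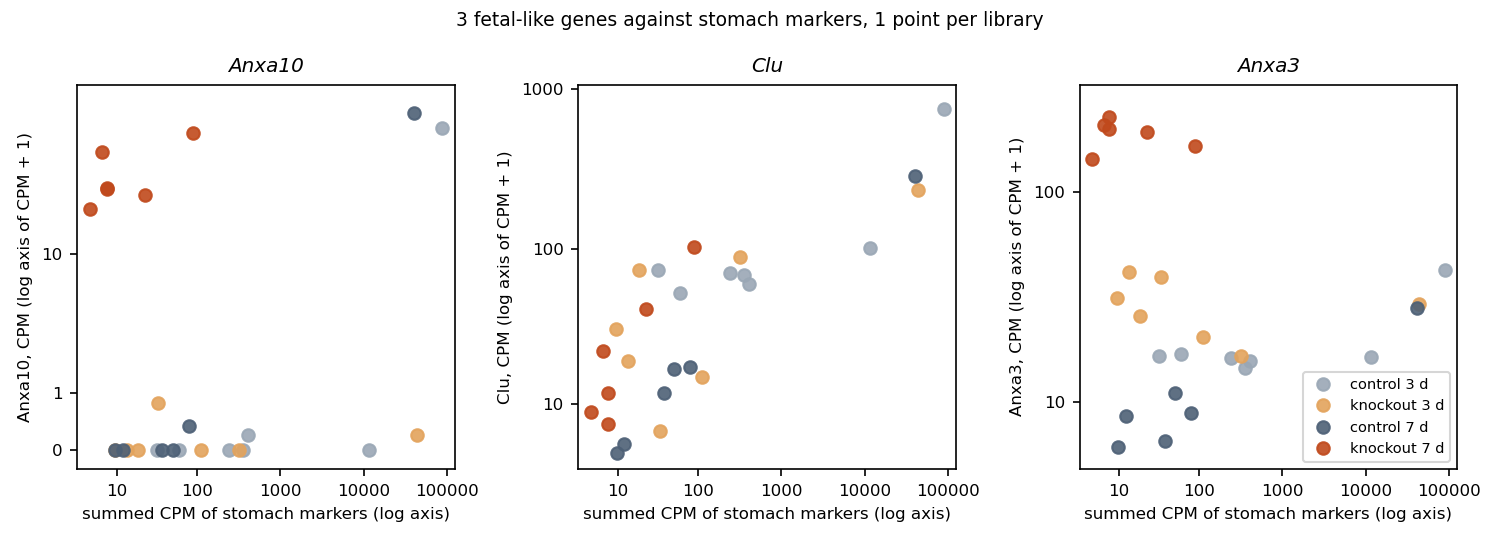
*Anxa10*, *Clu* and *Anxa3* in CPM (vertical, log axis of CPM + 1) against the summed CPM of 15 stomach markers (horizontal, log axis), with 1 point per library. In knockout mice at 7 days *Anxa10* stands at 17.9 to 46.9 CPM with stomach markers below 100 CPM. *Clu* is highest, at 751, 286 and 233 CPM, in the 3 libraries with the highest stomach marker sums.

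*Anxa1* (ENSMUSG00000024659, GRCm38 chr19:20373428-20390944, minus strand), an annexin with anti-inflammatory action, was low in all groups. At 7 days it ranged from 1.32 to 9.42 CPM (median 4.87) in knockout mice and from 1.35 to 6.54 CPM (median 3.34) in control mice. The ranges overlapped widely, and the log2 difference of 0.57 (standard error 0.381, 95% interval -0.18 to 1.32) did not pass the threshold (adjusted p = 0.266, edgeR). At 3 days the log2 difference was -0.25 (95% interval -0.68 to 0.19). With 8 to 58 counts per library, a change of the size seen for *Ly6a* at 7 days lies inside the interval of *Anxa1*.

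*Sprr1a* (ENSMUSG00000050359, GRCm38 chr3:92483952-92485895, minus strand) encodes a small proline-rich protein of the cornified envelope of squamous epithelia. It had 76, 496, 156, 78, 127 and 191 counts in the 6 knockout mice of day 7, which is 13.3 to 78.6 CPM. In control mice it had 0, 30, 2, 0, 0 and 2 counts, so that nearly all control reads came from replicate 2. The groups did not overlap, with a log2 fold change of 4.92 ± 0.691 (SE, adjusted p = 1.37e-05, edgeR). It was 7.49 with the stomach and pancreas marker scores as covariates and 7.52 without the libraries rich in these markers. Without control replicate 2 alone the gene could not be fitted, and the difference in mean level of 35.5 CPM had p = 0.00649 in an exact permutation test. At 3 days it was at 0 to 3 counts in knockout mice and at 0 to 21 counts in control mice, the latter in replicate 5. The difference of -0.864 CPM at 3 days did not pass the exact permutation test (p = 0.278). Markers of squamous epithelium summed to at most 6.43 CPM in any library, with *Krt6a* and *Sprr3* at 0 throughout.

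*F3* (ENSMUSG00000028128, GRCm38 chr3:121723537-121735048, plus strand) encodes tissue factor, the membrane receptor of factor VII that starts blood coagulation. At 7 days it stood at 5.43, 9.51, 5.69, 5.07, 4.61 and 5.04 CPM in knockout mice and at 0.508, 1.30, 2.57, 1.35, 0.77 and 2.68 CPM in control mice. All 6 knockout libraries were above all control libraries, although the counts behind them were small, at 28 to 60 and 3 to 17. The log2 fold change was 1.93 (standard error 0.329, 3.82-fold, adjusted p = 0.000114, edgeR). At 3 days it ranged from 2.102 to 4.53 CPM (median 2.66) in knockout mice and from 0.797 to 6.86 CPM (median 1.95) in control mice. The control libraries of day 3 spread on both sides of the knockout libraries, and the log2 difference was 0.14 (95% interval -0.67 to 0.95, adjusted p = 0.927, edgeR).

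The promoter windows of *Sprr1a*, *F3* and *Anxa10* are shown because these genes had the lowest median levels in control mice and each window holds the AP-1 motif TGACTCA, the binding sequence of the FOS and JUN factors. Windows of 300 bases, from 250 bases before to 50 bases after the start of transcription (RefSeq, GRCm38.p6), were at hand for 6 of the 9 members and run 5′ to 3′ on the strand of the gene. The coordinates are chr3:92485832-92486131 (minus strand) for *Sprr1a*, chr3:121723287-121723586 (plus strand) for *F3* and chr8:62123144-62123443 (minus strand) for *Anxa10*. Capitals mark matches to TGACTCA or TATAAA on either strand, and the AP-1 motif reads TGAGTCA in all 3 windows.
Sprr1a: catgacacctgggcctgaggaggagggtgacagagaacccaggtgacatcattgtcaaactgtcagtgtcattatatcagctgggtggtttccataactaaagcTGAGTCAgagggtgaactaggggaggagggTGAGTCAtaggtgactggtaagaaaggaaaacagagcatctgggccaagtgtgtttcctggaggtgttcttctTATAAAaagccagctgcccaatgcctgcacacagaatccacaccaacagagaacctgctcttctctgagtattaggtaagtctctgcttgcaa
F3: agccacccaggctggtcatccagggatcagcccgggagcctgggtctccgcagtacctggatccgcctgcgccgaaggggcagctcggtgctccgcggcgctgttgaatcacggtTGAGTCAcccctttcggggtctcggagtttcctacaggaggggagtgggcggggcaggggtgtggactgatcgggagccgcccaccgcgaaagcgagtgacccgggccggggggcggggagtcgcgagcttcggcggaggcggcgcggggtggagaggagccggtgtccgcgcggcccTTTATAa
Anxa10: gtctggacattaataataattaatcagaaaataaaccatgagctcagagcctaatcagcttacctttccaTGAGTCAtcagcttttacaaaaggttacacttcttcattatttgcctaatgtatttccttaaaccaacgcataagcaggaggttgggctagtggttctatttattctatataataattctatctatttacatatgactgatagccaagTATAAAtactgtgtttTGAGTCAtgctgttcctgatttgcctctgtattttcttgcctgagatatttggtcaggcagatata
In *Sprr1a* the AP-1 motif begins 146 and 116 bases before the start, in *Anxa10* 180 and 16 bases before it, and in *F3* 135 bases before it. The motif is found in 5.2% of all 32851 promoter windows, and TATAAA in 13.6%. The windows of *Anxa1*, *Krt7* and *Il33* hold no TGACTCA. The TEAD motif GGAATG, found in 14.7% of all windows, is present in *Anxa1* and in both windows of *Il33*, and in none of the 3 windows shown. The GAS motif TTCNNNGAA (8.3% of windows) and the ATF4 motif TTGCATCA (0.895% of windows) are found in no window of a member. Such matches describe these 300 bases only and say nothing about binding.

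*Ly6a* (ENSMUSG00000075602, GRCm38 chr15:74994877-74998031, minus strand) encodes SCA-1, a surface protein held by a lipid anchor. At 7 days it stood at 68.7, 77.2, 83.2, 109, 78.7 and 127 CPM in knockout mice and at 43.5, 43.9, 36.1, 45.2, 48.0 and 40.9 CPM in control mice. Every knockout library lay above every control library, and the log2 fold change was 1.105 (standard error 0.134, 2.15-fold, adjusted p = 2.43e-06, edgeR). At 3 days, however, the medians of both genotypes were above the median of 81.0 CPM in the knockout mice of day 7, with 49.9 to 144.4 CPM (median 99.5) in knockout mice and 88.7 to 150.5 CPM (median 101.6) in control mice. The log2 difference at 3 days was -0.09 (95% interval -0.45 to 0.28, adjusted p = 0.892, edgeR). The last 300 bases of the longest *Ly6a* transcript are 86.4% identical to *Ly6i*, and reads that fit both genes are uncertain.

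Endothelial markers moved together with *Ly6a*. At 7 days the 9 endothelial markers summed to between 333 and 429 CPM in knockout mice and to between 170 and 230 CPM in control mice, and 7 of the 9 rose, among them *Esam* (log2 fold change 1.42, adjusted p = 1.8e-09, edgeR) and *Emcn* (1.45, adjusted p = 1.18e-06, edgeR). At 3 days the sum was 281 to 937 CPM in knockout mice and 478 to 865 CPM in control mice. Per 100 CPM of endothelial markers, *Ly6a* stood at 18.3 to 29.8 CPM in knockout mice and 20.7 to 23.7 CPM in control mice at 7 days, and these ranges overlapped. At 3 days it stood at 10.6 to 21.0 CPM in knockout mice and 17.4 to 21.1 CPM in control mice, which overlapped too. This ratio was chosen after the values had been seen. Markers of T and NK cells moved the other way at 7 days, with 8.88 to 32.8 CPM in knockout mice and 99.5 to 165.4 CPM in control mice. The part of these cells in the change of *Ly6a* was not tested.

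*Il33* (ENSMUSG00000024810, GRCm38 chr19:29925114-29960718, plus strand), which encodes an alarmin cytokine kept in the nucleus and released from damaged cells, was the member that fell. At 7 days it stood at 4.21, 5.23, 4.55, 6.16, 3.79 and 6.66 CPM in knockout mice and at 13.5, 18.0, 26.2, 16.9, 31.0 and 19.7 CPM in control mice. All knockout libraries were below all control libraries. The change on the log2 scale was -2.02 with a standard error of 0.218 (adjusted p = 6e-07, edgeR). At 3 days it ranged from 3.88 to 16.2 CPM (median 9.23) in knockout mice and from 7.17 to 18.8 CPM (median 8.43) in control mice, with a log2 difference of -0.20 (95% interval -0.74 to 0.33). At 7 days the 10 fibroblast markers summed to 952 to 1934 CPM in knockout mice and 887 to 1444 CPM in control mice, with 4 higher and 1 lower by the test. The sums of the fibroblast markers overlapped between the genotypes, and those of the endothelial markers were higher in the knockout mice. Lower together with *Il33*, without overlap, were the summed markers of T and NK cells, of B and plasma cells (359 to 574 CPM in knockout mice and 606 to 1411 CPM in control mice) and of epithelium (3072 to 3558 CPM and 4194 to 5140 CPM). Of the 8 epithelial markers, 5 fell. The part of these cells in the change of *Il33* was not tested.

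**Figure D3:**
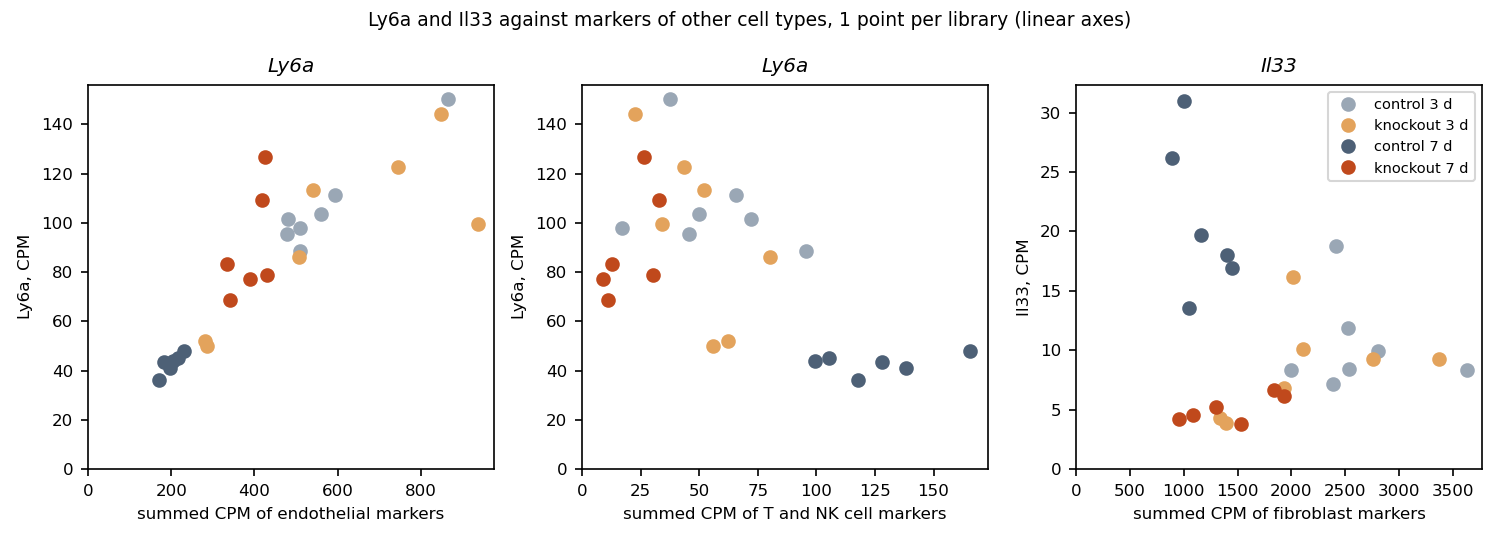
*Ly6a* against the summed markers of endothelium and of T and NK cells, and *Il33* against the summed markers of fibroblasts, all in CPM on linear axes, with 1 point per library. Control libraries of day 7 lie lowest in *Ly6a* (36.1 to 48.0 CPM) and in endothelial markers (170 to 230 CPM), and their *Il33* (13.5 to 31.0 CPM) lies above that of the knockout libraries of day 7 and overlaps that of day 3.

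*Krt7* (ENSMUSG00000023039, GRCm38 chr15:101411043-101430313, plus strand), a keratin of simple and ductal epithelia, had the smallest of the called changes. At 7 days it stood at 66.1, 68.0, 65.0, 68.5, 66.0 and 82.3 CPM in knockout mice and at 31.2, 57.8, 39.2, 33.1, 35.8 and 30.9 CPM in control mice. The groups did not overlap, and the knockout libraries were close to each other except for replicate 6. The log2 fold change was 0.90 (standard error 0.133, 1.86-fold, adjusted p = 2.43e-05, edgeR), and it ranged from 0.81 to 1.02 when 1 mouse was left out. Ductal markers of pancreas and bile duct were at 718 to 926 CPM in knockout mice and 785 to 1263 CPM in control mice at 7 days. The marker with the highest mean count among them was *Krt19* (2760), which is also in the list of epithelial markers. *Muc1* and *Spp1* had means of 15.25 and 5.08 counts. This sum therefore cannot set ducts apart from the intestinal epithelium. At 3 days *Krt7* ranged from 18.5 to 57.9 CPM in knockout mice and from 27.2 to 44.9 CPM in control mice, with a log2 difference of 0.26 (95% interval -0.14 to 0.65, adjusted p = 0.64, edgeR). The lowest value was that of knockout replicate 1, the knockout library with stomach markers above 1000 CPM. A stretch of 194 bases in the last 300 bases of *Krt7* is 90.7% identical to a transcript of *Bbs1*, and the exons of *Gm671*, with at most 4 counts in a library, overlap *Krt7* on the other strand.

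*Clu* (ENSMUSG00000022037, GRCm38 chr14:65968483-65981547, plus strand) encodes clusterin, a secreted chaperone that marks revival stem cells of the crypt. At 7 days it stood at 8.76, 11.9, 7.21, 103, 42.0 and 22.3 CPM in knockout mice and at 17.6, 286, 4.45, 17.1, 5.20 and 11.8 CPM in control mice. The highest value of each genotype was in a library with a high sum of pancreas or stomach markers. Knockout replicate 4 held 21610 CPM of pancreatic acinar markers and control replicate 2 held 40580 CPM of stomach markers. The tissue source of these markers was not tested. Over all 12 libraries *Clu* differed by -0.72 on the log2 scale, with a standard error of 0.86 (adjusted p = 0.56, edgeR). Without control replicate 2 its direction turned, to 1.52 (adjusted p = 0.0437, edgeR). It was 1.87 (adjusted p = 1.77e-06, edgeR) with the stomach and pancreas marker scores as covariates, and 1.32 (adjusted p = 0.0203, edgeR) in the 4 knockout and 2 control libraries below 1000 CPM of both marker sums. The last setting and the one without stomach libraries were chosen after the data had been seen. At 3 days *Clu* ranged from 6.49 to 233 CPM in knockout mice and from 52.6 to 751 CPM in control mice. Both maxima were in libraries with stomach markers above 1000 CPM. The log2 difference of -1.31 (standard error 0.758, adjusted p = 0.486, edgeR) was -0.01 without control replicate 5 and -2.01 without knockout replicate 1, the libraries with these maxima. Without the stomach libraries of both genotypes it was -0.59 (adjusted p = 0.565, edgeR), and the mean level of *Clu* was 39.0 ± 33.9 CPM over 6 knockout mice and 65.4 ± 8.75 CPM over 5 control mice (SD).

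**Figure D4:**
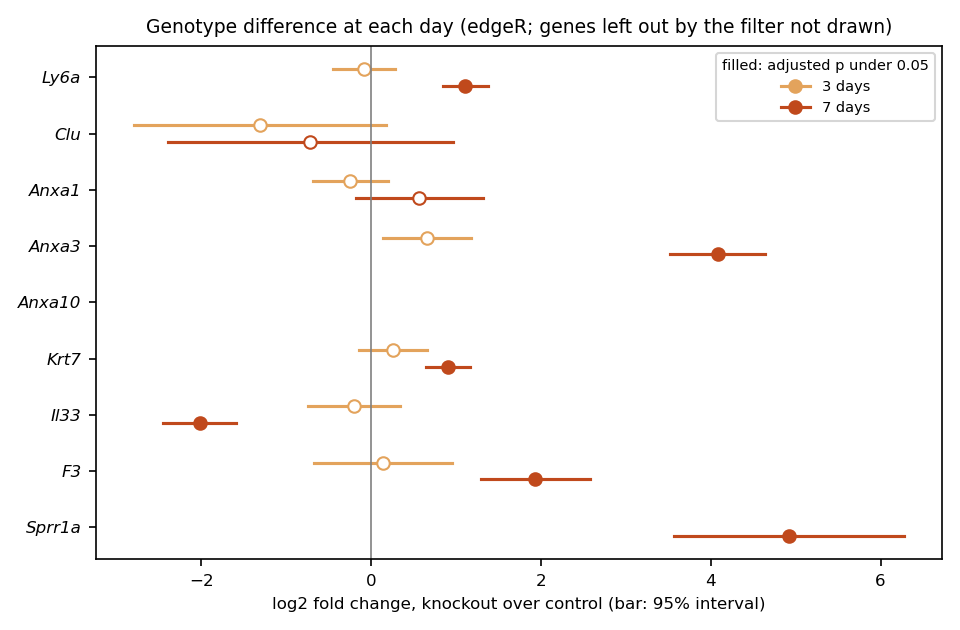
Log2 fold change of knockout over control mice at 3 and 7 days with its 95% interval (horizontal) for each gene in the fit (vertical). Filled points passed the threshold, which 0 of 7 genes did at 3 days and 6 of 8 did at 7 days, and *Clu* has the widest intervals.

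The effect of the genotype was then compared between the days in a fit of all 26 libraries, which included 7 members. It differed in 4 of them, higher in 3 and lower in 1, as against 8.64% and 9.74% of all genes. The difference was 3.44 on the log2 scale for *Anxa3* (standard error 0.424, adjusted p = 9.53e-07), 1.81 for *F3* (0.562, adjusted p = 0.0227), 1.21 for *Ly6a* (0.25, adjusted p = 8e-04) and -1.80 for *Il33* (0.379, adjusted p = 0.000933, all edgeR). For *Krt7* it was 0.66 (95% interval 0.16 to 1.17, adjusted p = 0.0745, edgeR). That of *F3* lost its call without control replicate 6 of day 3 (1.45, adjusted p = 0.0586) or knockout replicate 2 of day 7 (1.62, adjusted p = 0.0529). That of *Krt7* passed the threshold without control replicate 2 of day 7 (0.78, adjusted p = 0.0303), knockout replicate 5 of day 3 (0.74, adjusted p = 0.043) or control replicate 2 of day 3 (0.74, adjusted p = 0.0444). In the 13 libraries below 1000 CPM of both marker sums, the differences of *Ly6a* (1.03, adjusted p = 0.119) and *F3* (2.14, adjusted p = 0.0783) did not pass.

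The 4 differences were made up in different ways. In knockout mice, *Anxa3* (log2 change from day 3 to day 7 of 2.90, adjusted p = 9.51e-09), *F3* (1.24, adjusted p = 0.00872) and *Krt7* (0.97, adjusted p = 0.000109, edgeR) rose between the days, as did 20.1% of all genes, and 0 members fell, as against 20.2% of all genes. In control mice these 3 genes did not pass the test. *Ly6a* and *Il33* showed the reverse, as their levels in control mice changed between the days. *Ly6a* fell by 1.003 on the log2 scale (adjusted p = 0.000117, edgeR) and *Il33* rose by 1.33 (adjusted p = 0.000212, edgeR) in control mice, against backgrounds of 19.3% of all genes lower and 19.0% higher. With them moved the cell type markers of the control mice, where 8 of 9 endothelial, 10 of 10 fibroblast, 7 of 7 smooth muscle and 8 of 8 neuronal or glial markers fell, 7 of 8 epithelial markers rose, and 6 of 10 markers of T and NK cells rose and 2 fell. Their part in the changes of *Ly6a* and *Il33* was not tested. In knockout mice their changes of 0.20 and -0.47 did not pass (adjusted p = 0.373 and 0.185, edgeR). The labels give no batch, and the day and a batch that held the mice of 1 day cannot be told apart. With library totals in place of TMM, the median of all genes shifted by -0.41 in control mice between the days, the share of called genes that were higher was 20.5% in place of 49.6%, and *Ly6a* fell by 1.32. In knockout mice the median shifted by -0.35 and this share was 26.9% in place of 49.9%. *Anxa10* and *Sprr1a* were not in this fit. In knockout mice they had at most 4 and 3 counts in a library of day 3 and at least 102 and 76 counts in a library of day 7.

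Further genes of this state and of the Hippo pathway were counted in the same way, against the 19.7% of all genes higher and 18.8% lower at 7 days and the 1.43% called at 3 days. Of 21 further fetal-like genes tested at 7 days, 13 rose and 1 fell, with a median of 0.91. *Areg*, an EGF receptor ligand, rose by 5.88 and *Plaur*, the urokinase receptor, by 4.76, whereas *Hmga2*, a chromatin protein of fetal tissues, fell by 0.49. At 3 days 3 of 20 rose. These were *Areg* (5.13, adjusted p = 4.95e-05), *Ereg*, a further EGF receptor ligand (2.01, adjusted p = 0.0014), and the cytokine receptor *Tnfrsf12a* (1.75, adjusted p = 0.0014, edgeR), the last named after its value was seen. These 3 genes thus passed at a time when none of the 9 members did. Of 23 YAP target genes, with *F3* among them, 15 rose and 2 fell at 7 days (median 0.57), among them *Nt5e* (3.52) and *Ajuba* (2.08) upwards and *Nuak2* (-1.44) and *Crim1* (-0.37) downwards. Of 17 Hippo pathway components, 8 rose and 2 fell, with the co-activator *Wwtr1* (1.76) and its partner *Tead1* (1.197) upwards and *Vgll4* (-0.75) and *Amot* (-0.86) downwards. At 3 days 0 of 23 YAP targets and 0 of 17 components passed. Of the 23 YAP targets, 4 rose and 12 fell between the days in control mice (median -0.87), as against 19.0% and 19.3% of all genes. In knockout mice 7 rose and 3 fell (median 0.0051), as against 20.1% and 20.2% of all genes. In the same control mice the markers of endothelium, fibroblasts and smooth muscle fell (8 of 9, 10 of 10 and 7 of 7), and their part in the values of the YAP targets was not tested.

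**Figure D5:**
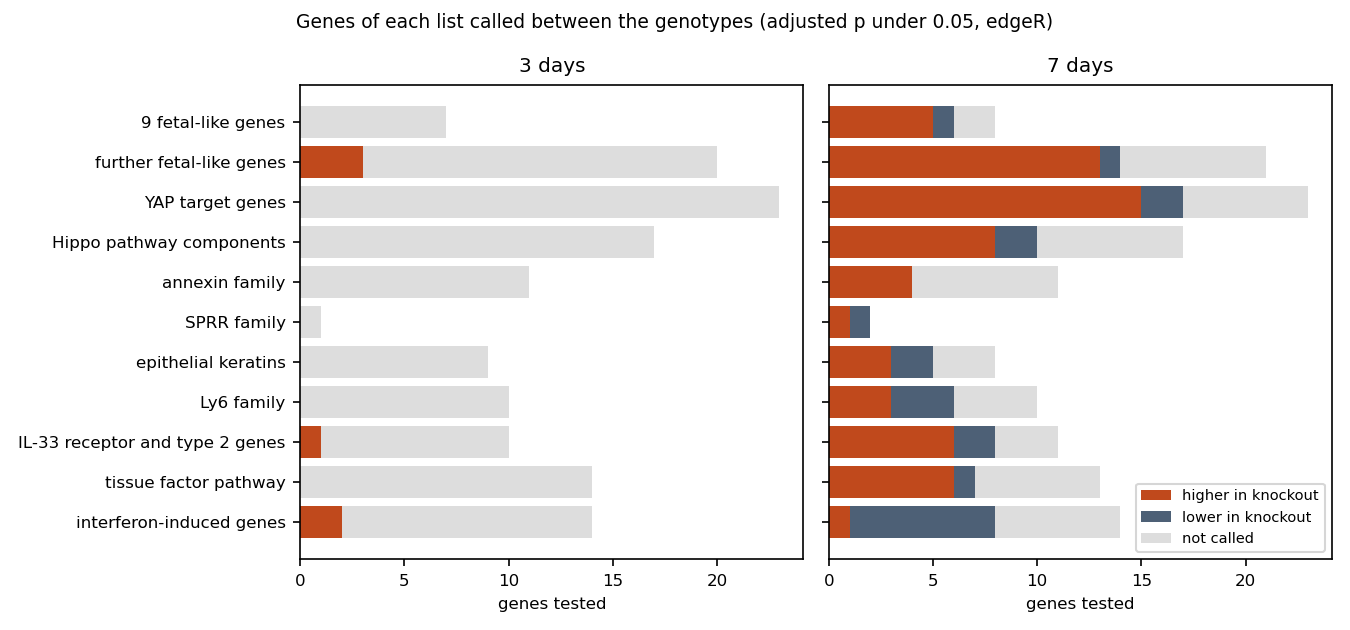
Number of genes tested in each list (horizontal) that were higher, lower or not called in knockout mice at 3 days and 7 days. At 7 days 13 of 21 further fetal-like genes and 15 of 23 YAP target genes were higher, and at 3 days 3 of 20 and 0 of 23 were.

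Relatives of the members did not all move with them. The counts of the families include the members and stand against the same shares of all genes. Those of the keratins and the Ly6 family went both ways in short lists, and no list was tested against these shares. Of 11 annexins at 7 days, 4 rose and 0 fell, led by *Anxa3* and *Anxa5* (1.23, adjusted p = 9.51e-07, edgeR). Of the 15 *Sprr* genes only *Sprr1a* and *Sprr2a3* were tested, and *Sprr2a3* fell by 2.23 (adjusted p = 0.00587, edgeR). Of 8 keratins, 3 rose and 2 fell, with *Krt23* (3.64) and *Krt18* (1.504) upwards and *Krt20* (-0.72), a keratin of differentiated villus cells, and *Krt19* (-0.33) downwards. Of 10 genes of the Ly6 family, 3 rose and 3 fell, and *Ly6c1*, a neighbour of *Ly6a* that is also expressed in endothelium, rose by 1.06 (adjusted p = 1.93e-07, edgeR) while *Lypd8* (-2.27) and *Ly6m* (-2.02) fell. Beside *Il33*, the gene of its receptor ST2, *Il1rl1*, rose by 2.44 (adjusted p = 1.12e-05, edgeR), and of the 11 genes tested in a list of 14 IL-33 receptor and type 2 immunity genes 6 rose and 2 fell, the latter *Gata3* (-1.03) and *Il13ra1* (-0.78). The 6 include *Areg*, which is also in the fetal-like list, and the others besides *Il1rl1* are type 2 cytokines or receptors and not IL-33 signalling components. Of 13 genes of coagulation and its receptors, *F3* included, 6 rose and 1 fell, with *Plat*, the tissue plasminogen activator, at 2.46 and *F2rl2* at -1.97. Among the 6 are *F3* itself and *Plaur*, which is also in the fetal-like list. Of 14 interferon-induced genes, which *Ly6a* is known to be among, 1 rose and 7 fell, with *Rsad2* at 2.44 and *Psmb8* and *Irf1* at -2.28 and -2.01. At 3 days 0 of 11 annexins, 9 keratins, 10 genes of the Ly6 family and 14 genes of coagulation passed, and of the interferon-induced genes *Rsad2* (0.82) and *Oasl2* (0.67) rose.

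Within groups, the members did not vary as 1 unit. The deviation of each library from the mean of its group, on log2 CPM over 26 libraries, was compared between genes as a description. The genes most like *Anxa10* were *Cldn18* (Pearson r = 0.975, Spearman rho = 0.873), *Gkn1* (0.973, 0.883) and *Psca* (0.97, 0.874), all of them expressed in stomach, and without control replicate 5 of day 3 and control replicate 2 of day 7 r was 0.798, 0.773 and 0.746. The nearest genes of *Sprr1a* were *Mucl3*, *Muc5ac* and *Gm15318* (r = 0.847 to 0.821) and those of *Anxa3* were *Paqr8*, *Cbr3* and *Muc5ac* (r = 0.866 to 0.821), where r fell to between 0.356 and 0.599 without the same 2 libraries. Each r without the 2 libraries, also for *Anxa10*, still used group means that include them. The other control libraries thus keep a shared offset, and these r do not show likeness beyond the 2 libraries. For *Clu* they were *Slc16a7*, *Ppic* and *Tesc* (r = 0.86 to 0.829, rho 0.627 to 0.693). Without the same 2 libraries r was 0.752, 0.716 and 0.668, with the same limit. The nearest genes of *Ly6a* were *Iigp1*, *Adgrf5* and *Col6a1* (r = 0.873 to 0.86), and those of *Il33* were *Vwa1*, *Ypel5* and *Habp4* (r = 0.768 to 0.711). *Krt7* was nearest to *Dsg2*, *Fer1l6* and *Ihh* (r = 0.827 to 0.803), *F3* to *Gm12758*, *Rfx7* and *Ptpre* (r = 0.8 to 0.755), and *Anxa1* to *Serpinh1*, *Jam2* and *Fcgr2b* (r = 0.729 to 0.692). For *Krt7*, r was 0.687, 0.713 and 0.639 without knockout replicate 1 of day 3 and control replicate 2 of day 7. Among the members themselves, r was 0.851 (rho 0.569) between *Anxa3* and *Anxa10* and 0.802 (rho 0.587) between *Anxa10* and *Sprr1a*. In each of these 3 genes control replicate 5 of day 3 and control replicate 2 of day 7 are the farthest. Between *Ly6a* and *Anxa3*, r was -0.05 (rho 0.09).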

How the data were processed

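Proximal SI tissue of 26 mice was sequenced with the QuantSeq 3′ FWD kit, with 1 library per mouse. Samples were grouped by genotype and day from the labels. The authors trimmed the reads with cutadapt (2.10, per the labels), aligned them to GRCm38 with Subread and counted them on exons of Ensembl genes with featureCounts (2.0.1), where a read on several genes is split into fractions. The deposited values used here are these estimated counts, 95% of which are whole numbers, and no option for the strand is given in the sources used here. They were rounded before fitting, as the design had assumed whole counts. The 92 rows without a gene name were left out, and a deposited CPM table was not used.

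Fits were made with edgeR 4.0.16 under R 4.3.3 (quasi-likelihood test, TMM, 1 fit per day and 1 fit of all libraries, Benjamini-Hochberg adjusted p under 0.05), as the study compared genotypes within a day. Genes with 0 counts in most of the libraries of a group were left out, as in the study. For members left out, the mean CPM was tested by exact permutation of the mice (two-sided). Intervals are the log2 fold change plus or minus 1.96 standard errors. As alternatives, DESeq2 1.42.0 (Wald test) was run, and edgeR with its size factors, library totals, filterByExpr, no filter, unrounded values, marker scores as covariates, a replicate block, 1 fit of all libraries and each mouse left out in turn. Leaving out libraries with stomach or pancreas markers above 1000 CPM was added after seeing the data. The pipeline was tested on simulated data. Coordinates and exon overlaps are from GENCODE M21, and promoters from RefSeq.

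The members, lists, tests and alternatives were chosen with earlier results of these data known. Named were all 9 members, from each list and day at most the 2 largest rises and 2 largest falls among called genes whose mean was 10 counts or more, and for each member the 3 genes most like it. The level of the targeted gene is not reported here. Counting error and the number of mice limit all values, and 0 pairs of libraries were identical.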

Additional observations from a re-analysis of the deposited data

Results flagged for a closer look

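In 18 of 36 sets of libraries (9 genes in 4 groups), the highest or lowest library stood apart from the others by Dixon's criterion, where chance gives about 1.8. Of these, 10 were in the 3 libraries with most stomach marker RNA. Control replicate 5 of day 3 stood apart in *Clu* (751 CPM), *Anxa3* (43.3 CPM), *Anxa10* (49.7 CPM) and *Sprr1a* (5.65 CPM). Control replicate 2 of day 7 stood apart in *Clu* (286 CPM), *Anxa3* (28.7 CPM), *Anxa10* (60.2 CPM), *Krt7* (57.8 CPM) and *Sprr1a* (6.51 CPM). Knockout replicate 1 of day 3 stood apart in *Clu* (232.9 CPM). Their summed stomach markers were 88460, 40580 and 43470 CPM. The tissue source of these markers and its part in the values were not tested.

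Knockout replicate 4 of day 7, with 21610 CPM of pancreatic acinar markers, stood apart in *Clu* (103.2 CPM). Knockout replicate 2 of day 7 stood apart in *Sprr1a* (78.6 CPM) and *F3* (9.51 CPM), and its stomach and pancreas markers were at 7.29 and 11.4 CPM. Knockout replicate 6 of day 7 stood apart in *Krt7* (82.3 CPM). At 3 days, control replicate 2 stood apart in *Ly6a* (150.5 CPM), together with the highest endothelial marker sum of the control mice (865 CPM), and control replicate 4 in *Il33* (18.8 CPM). *Anxa10* in knockout replicate 4 (0.786 CPM) and *Sprr1a* in knockout replicate 7 (0.615 CPM) of day 3 rest on 4 and 3 counts.

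By the test of the difference itself, the change with genotype was not the same at 3 and 7 days for *Anxa3* (3.44 on the log2 scale), *F3* (1.81), *Ly6a* (1.21) and *Il33* (-1.80).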

How the results depend on the processing

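The number of members called at 7 days was 6, and 5 to 7 under the alternatives. The 5 with all 26 libraries in 1 fit, and the 5 without control replicate 3 or 6, came from fits that *Sprr1a* could not enter. Without control replicate 2, *Sprr1a* was out and *Clu* was called. The 6 calls were kept under every alternative in which the gene could be fitted. At 3 days the count was 0, and 1 without the stomach libraries, and it ranged from 0 to 1 when 1 mouse was left out. For the difference between the days it was 4, and 2 without the stomach and pancreas libraries, where fewer samples remained. In control mice between the days it was 2, and 4 with library totals, with the marker scores as covariates and without the stomach libraries, and it ranged from 2 to 4 when 1 mouse was left out. In knockout mice between the days it was 3, and 5 with filterByExpr or no filter, which let *Anxa10* and *Sprr1a* in.

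All changes of direction were in values that did not pass the threshold with all libraries and TMM. *Clu* at 7 days turned from -0.72 to 1.87 with covariates, 0.45 with the replicate block, 1.52 without the stomach libraries and 1.32 without the stomach and pancreas libraries, and ranged from -1.53 to 1.52 when 1 mouse was left out. At 3 days *Clu* was 0.0083 with the DESeq2 Wald test. *F3* at 3 days was -0.16 with covariates, -0.067 without the stomach libraries and -0.28 without the stomach and pancreas libraries, where *Ly6a* was 0.027. Leaving out 1 mouse, *Ly6a* at 3 days ranged from -0.195 to 0.0138, *F3* from -0.0246 to 0.505, and the difference of *Clu* between the days from -0.72 to 2.84. With library totals, *Krt7* in control mice between the days was -0.0114, and *Ly6a* and *Anxa1* in knockout mice were -0.0771 and -0.0129. The difference of *Anxa10* at 3 days was 0.0953 and 0.158 CPM without the stomach, and the stomach and pancreas, libraries and from -7.76 to 0.109 CPM when 1 mouse was left out, and that of *Sprr1a* was 0.186 CPM without the latter. The cause was not tested.

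Replicate numbers are shared between the genotypes but gave no pairing, with correlations of deviations from -0.389 to 0.49 at 3 days and from -0.302 to 0.493 at 7 days. The replicate block called 0 members at 3 days, 6 at 7 days and 4 for the difference, as without it. Depth limits *F3*, *Anxa1* and the day-3 values of *Anxa10* and *Sprr1a*, which rest on few counts.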
